A study of Mus musculus with 19 samples.

Results

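The genes described here, measured in mouse skin, encode secreted and membrane-bound proteases of the extracellular matrix and their inhibitors. The proteases are the matrix metalloproteinases (Mmp) and the ADAMTS proteases (Adamts), and the inhibitors are the tissue inhibitors of metalloproteinases (Timp). The genes were taken by symbol, as every row that begins with Mmp, Adamts or Timp and a number and that held at least 10 counts summed over all libraries. Of 46 symbols of that kind 44 met the minimum, out of 18521 genes in the table: 21 Mmp, 19 Adamts and 4 Timp genes. Mmp20, with 49 counts, was the member nearest to the minimum, and Mmp7 with 4 and Mmp21 with 2 counts lay outside it. A filter on low counts left 42 of the 44 for testing, and Mmp1a and Mmp20 did not pass it.

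All mice, the healthy ones included, were female and carried the genotype Ptch1+/- K14-CreER2 p53fl/fl. They lack a working copy of the Hedgehog receptor gene Ptch1 on 1 chromosome, and tamoxifen switches on a Cre recombinase in cells that use the keratin 14 promoter, which removes the floxed p53 gene (Trp53) in those cells alone. The AFL group (3 mice, 4 libraries) had induced skin with early basal cell carcinoma (BCC) treated with an ablative fractional laser, a laser that vaporises narrow columns of tissue, in 1 treatment at a density of 5% and 40 mJ per microbeam. The vismodegib group (4 mice, 5 libraries) had induced skin treated with 8 applications of vismodegib, an inhibitor of the Hedgehog signal transducer Smoothened. The BCC group (4 mice, 4 libraries) had induced skin left untreated, and the healthy group (5 mice, 6 libraries) skin that was not induced. Induction was 3 tamoxifen injections of 300 µg and an x-ray dose of 4 Gy, and skin pieces of 1 cm2 were taken on day 4. Mice treated with a vehicle or a sham laser were not among the samples used here, so the treatment and its vehicle or handling cannot be told apart. AFL mice were 228 to 326 days old, vismodegib mice 268 to 326, BCC mice 278 to 320 and healthy mice 128 to 137 by the labels, so induction and age cannot be told apart. AFL skin was taken 80 to 126 days after induction, vismodegib skin 109 to 137 and BCC skin 130 to 144. The AFL and BCC days did not overlap, so laser treatment and time since induction cannot be told apart between these groups. A fit with the days as a covariate does not remove this limit.

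Mmp enzymes are made as inactive precursors and, once activated, cleave collagens, elastin, laminins and other matrix proteins; in skin they are known from wound repair, where keratinocytes at the wound edge, fibroblasts, macrophages and neutrophils each make their own set. ADAMTS proteases trim matrix components in a narrower way, such as the ends of procollagens, large proteoglycans and fibrillin-bound complexes. Timp proteins bind the active site of Mmp enzymes and, in the case of Timp3, also that of many ADAMTS enzymes.

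Library totals lay between 27185900 and 33556600 counts. Trp53, which tamoxifen deletes in keratin 14 cells, had 31.5 to 44.9 CPM in AFL mice, 25.3 to 55.1 in vismodegib mice, 23.6 to 36.3 in BCC mice and 94.0 to 143 in healthy mice, so that every induced mouse lay below every healthy one. Vismodegib mouse 9 stood apart with a TMM scaling factor of 0.591, against 0.906 to 1.18 in the other 15 mice. Hair growth also differed: the mean log2(CPM + 1) of 14 growing-hair genes was 9.00 in vismodegib mouse 6, 8.90 in BCC mouse 3, 1.04 to 4.19 in the remaining induced mice and 5.21 to 10.0 in healthy mice. In pieces of whole skin, fewer cells of a type and less RNA per cell cannot be told apart.

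Relative to untreated BCC, 6 secreted Mmp genes and Timp1 were higher after AFL, while 7 Adamts genes and 5 Mmp genes were lower after vismodegib. A member is said to have risen or fallen where edgeR's quasi-likelihood F test gave an adjusted p under 0.05 over all 15760 genes. In AFL against BCC, 9 of the 42 tested members rose (Mmp3, Mmp8, Mmp9, Mmp12, Mmp13, Mmp19, Adamts2, Adamts16 and Timp1), where 6.10% of all genes rose, and 2 fell (Adamts8 and Adamts17), where 1.65% of all genes fell. In vismodegib against BCC, 3 members rose (Mmp3, Mmp8 and Timp1), where 8.03% of all genes rose, and 12 fell (Mmp11, Mmp14, Mmp15, Mmp16, Mmp23, Adamts6, Adamts7, Adamts10, Adamts12, Adamts14, Adamts17 and Adamts19), where 9.00% of all genes fell. The median log2 fold change of the members was 0.43 in AFL against BCC, beside -0.04 over all genes, and -0.65 in vismodegib against BCC, beside 0.05 over all genes. Both comparisons use the same 4 BCC mice. In BCC against healthy, 8 members rose (Mmp10, Mmp13, Mmp14, Adamts1, Adamts4, Adamts7, Adamts17 and Adamts19), where 2.66% of all genes rose, and 0 fell, where 0.159% of all genes fell; edgeR gave 16 members an unadjusted p under 0.05 in either direction there, and DESeq2 called 9 as higher and 0 as lower.

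These counts rested in part on single mice. Without AFL mouse 11, 6 members were called in AFL against BCC in place of 11, and without BCC mouse 4 or healthy mouse 10, 13 or 14 there were 5 in BCC against healthy in place of 8. In vismodegib against BCC the count lay between 11 and 20 with any one mouse left out. The calls that held with each mouse left out in turn were 6 of 11 in AFL against BCC, 9 of 15 in vismodegib against BCC and 5 of 8 in BCC against healthy. The plot of fold changes by role shows both treatments side by side.

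**Figure D1:**
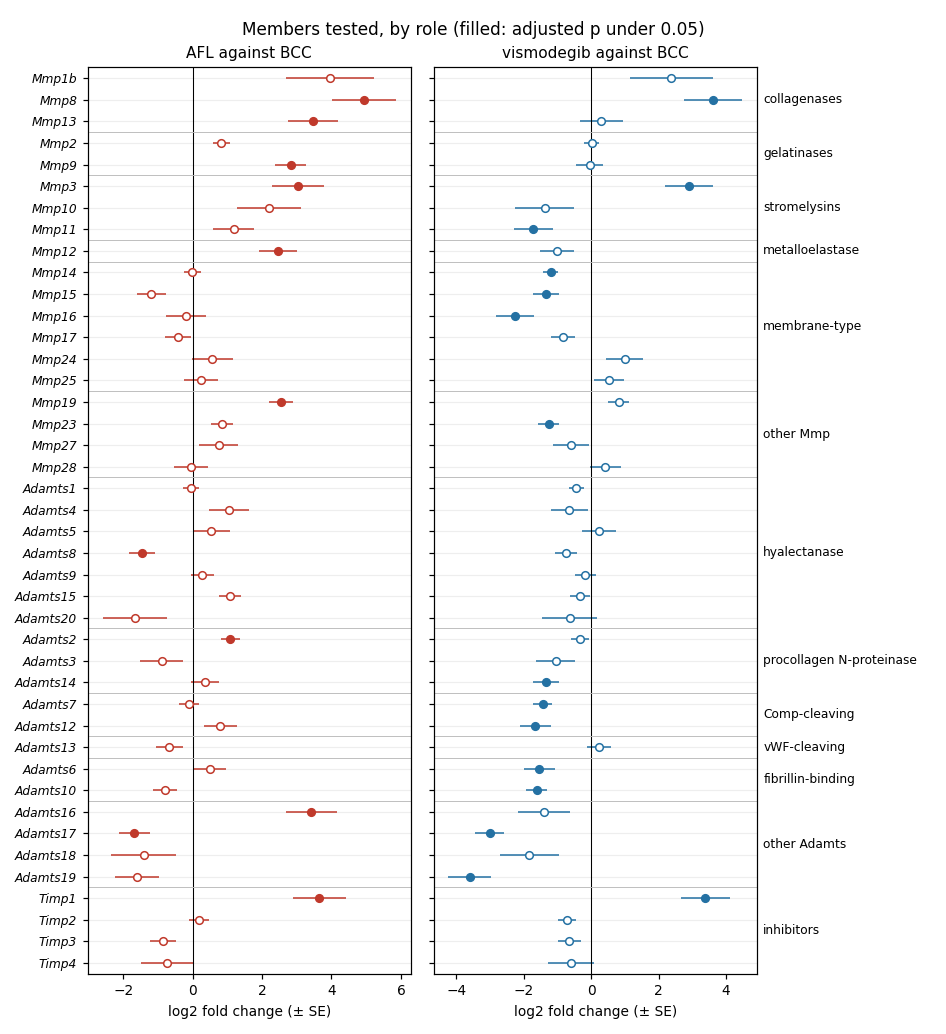
Log2 fold changes (horizontal axis, ± SE) of the 42 tested members in AFL against BCC (left) and vismodegib against BCC (right), grouped by role; filled points have an adjusted p under 0.05. Mmp3, Mmp8, Mmp9, Mmp12, Mmp13, Mmp19 and Timp1 rose in AFL, while 7 Adamts and 5 Mmp genes fell in vismodegib.

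Per kilobase of exon, the highest means were those of Timp1 and Mmp3 in both treated groups, at 217 and 171 CPM per kb in AFL skin and 181 and 155 CPM per kb in vismodegib skin. In AFL skin this order rested on 1 mouse. In vismodegib skin Timp1 led with any mouse left out, and the place of Mmp3 next to it rested on 1 mouse. Without AFL mouse 11, an alternative chosen after seeing the data, Timp2 led in AFL skin with 153 CPM per kb, ahead of Mmp2 with 130.4, Mmp3 with 123 and Timp1 with 100.4. Without vismodegib mouse 9, Timp1 averaged 89.2 CPM per kb and Mmp3 70.3 in vismodegib skin, beside 82.1 for Timp2 and 76.5 for Mmp2. Mmp2, the gelatinase of fibroblasts, is named here for its level and lies outside the rule for named genes. In BCC skin the order was Timp2 (124 CPM per kb), Mmp2 (72.0), Mmp14 (62.9) and Timp3 (43.8), and in healthy skin Timp2 (174 CPM per kb), Mmp2 (76.6), Timp3 (53.7) and Mmp14 (34.6); both orders were the same with any mouse of the group left out. Exon lengths for this scale came from the GENCODE vM21 annotation of GRCm38, a build other than that of the counts.

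The collagenases, which cut native fibrillar collagen, were the group with the largest median fold change between AFL and BCC. Mmp13 had 108, 29.5 and 183 CPM in AFL mice, 6.69, 10.9, 22.8 and 7.50 CPM in vismodegib mice, 2.75, 12.1, 20.3 and 3.597 CPM in BCC mice and 0.148, 0.350, 0.138, 0.550 and 0.318 CPM in healthy mice. Mmp13 is the main interstitial collagenase of the mouse. The AFL values all lay above the vismodegib and BCC values, which overlapped, and every healthy value lay below all others. Mmp13 rose 11.1-fold in AFL against BCC (log2 fold change 3.47 ± 0.71, adjusted p = 0.00561) and 31.8-fold in BCC against healthy (log2 fold change 4.99 ± 0.71, adjusted p = 0.000845), and did not pass in vismodegib against BCC (log2 fold change 0.30 ± 0.63, adjusted p = 0.782). Mmp13 stood at a log2 fold change in AFL against BCC of 2.78 without AFL mouse 11 and 4.09 without BCC mouse 5, and the call held there. Mmp13 stood at a log2 fold change in BCC against healthy of 4.36 without BCC mouse 5, and the call held there.

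Mmp8 had 3.58, 2.68 and 32.5 CPM in AFL mice, 2.63, 2.56, 11.6 and 3.98 CPM in vismodegib mice, 0.377, 0.882, 0.280 and 0.136 CPM in BCC mice and 0.0296, 0.0875, 0.166, 0.0289 and 0.159 CPM in healthy mice. Mmp8 is the collagenase best known from neutrophils. The values of both treated groups lay above all BCC values, and AFL mouse 11 and vismodegib mouse 9 were the highest of their groups. Mmp8 rose 30.8-fold in AFL against BCC (log2 fold change 4.94 ± 0.92, adjusted p = 0.00273) and 12.3-fold in vismodegib against BCC (log2 fold change 3.62 ± 0.85, adjusted p = 0.0106). Mmp8 stood at a log2 fold change in AFL against BCC of 2.85 without AFL mouse 11 and 5.60 without BCC mouse 4, and the call held there. Mmp8 stood at a log2 fold change in vismodegib against BCC of 4.27 without BCC mouse 4 and 2.88 without vismodegib mouse 9, and the call held there. The same 2 mice had the highest summed neutrophil markers of their groups: 2356 CPM in AFL mouse 11, beside 94.4 to 205 in the other 2 AFL mice, and 49359 CPM in vismodegib mouse 9, beside 2420.4 to 5407 in the other 3 vismodegib mice. The range was 25.4 to 136 in BCC mice and 8.10 to 23.8 in healthy mice, and Ly6g, a defining neutrophil marker, was at 0 in every BCC and healthy mouse. S100a8 and S100a9, which stressed keratinocytes also make, supplied most of the sums in vismodegib mice, with means of 7141 and 8093 CPM. Of the 8 neutrophil markers tested, 3 rose in AFL against BCC and 7 in vismodegib against BCC. The part of neutrophils in the Mmp8 values was not tested.

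Mmp1a and Mmp1b are the mouse counterparts of the human interstitial collagenase MMP1. Mmp1b held 27, 1 and 214 counts in AFL mice, 10, 5, 19 and 29 in vismodegib mice, 0, 6, 6 and 0 in BCC mice and 0 in every healthy mouse. Against a floor of 3 counts over the healthy group it was at least 130.3-fold higher in AFL (adjusted p = 0.00578) and at least 30.2-fold higher in vismodegib (adjusted p = 0.0234). Mmp1b passed the filter on low counts through AFL and vismodegib mice alone, so these calls are not independent of the filter. The AFL bound was 30.2-fold without AFL mouse 11, and the vismodegib call was lost without vismodegib mouse 9 (at least 24.3-fold, adjusted p = 0.0605), without healthy mouse 16 (adjusted p = 0.052) and with growing-hair expression as a covariate (adjusted p = 0.0697). Against BCC, Mmp1b did not pass in AFL (adjusted p = 0.0858) or in vismodegib (adjusted p = 0.202). Mmp1a, not tested, held 47 counts over the AFL mice (40 of them in mouse 11), 21 over the vismodegib mice, 2 over the BCC mice and 0 over the healthy mice, so that it was at least 25.3-fold higher in AFL and at least 10.1-fold higher in vismodegib than in healthy skin. Of the 50-base pieces of Mmp1b exons, 11.8% also occur in Mmp1a, so reads may have been divided between them.

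Among the stromelysins, which cleave proteoglycans, laminin and other non-collagen matrix and activate other Mmp precursors, Mmp3 rose with both treatments. Mmp3 had 313, 131 and 483 CPM in AFL mice, 219, 62.0, 738 and 98.6 CPM in vismodegib mice, 26.97, 51.9, 54.6 and 17.5 CPM in BCC mice and 9.05, 19.8, 9.27, 33.1 and 16.9 CPM in healthy mice. Every AFL and vismodegib value lay above every BCC value, and AFL mouse 11 and vismodegib mouse 9 were the highest. Each of these mice had the highest summed neutrophil markers and the highest summed macrophage markers of its own group. The part of either cell type in the Mmp3 values was not tested. Mmp3 rose 8.18-fold in AFL against BCC (log2 fold change 3.03 ± 0.74, adjusted p = 0.0173) and 7.40-fold in vismodegib against BCC (log2 fold change 2.89 ± 0.71, adjusted p = 0.013). For Mmp3 the call in AFL against BCC was lost without AFL mouse 11 or BCC mouse 3 or 8 (log2 fold changes 2.51 to 2.90, adjusted p 0.0551 to 0.0982). For Mmp3 the call in vismodegib against BCC was lost without vismodegib mouse 9 (log2 fold change 1.77, adjusted p = 0.0555).

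Mmp10 had 17.1, 2.32 and 30.5 CPM in AFL mice, 0.239, 1.40, 2.92 and 1.08 CPM in vismodegib mice, 1.65, 5.08, 7.37 and 0.381 CPM in BCC mice and 0, 0, 0.0276, 0.0868 and 0.0145 CPM in healthy mice. Mmp10 is the stromelysin known from migrating keratinocytes. BCC mice already lay above all healthy mice, and the AFL, vismodegib and BCC values overlapped. Mmp10 rose 130.3-fold in BCC against healthy (log2 fold change 7.03 ± 1.13, adjusted p = 0.00189), where the 5 healthy mice held 0, 0, 1, 3 and 1 counts, and did not pass in AFL against BCC (log2 fold change 2.20 ± 0.91, adjusted p = 0.175) or vismodegib against BCC (log2 fold change -1.38 ± 0.87, adjusted p = 0.289). Mmp10 stood at a log2 fold change in BCC against healthy of 7.96 without healthy mouse 15, and the call held there. Mmp3 and Mmp10 share 7.99% of the 50-base pieces of Mmp3 exons, and reads may have been divided between them.

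Mmp11 had 214, 143 and 124 CPM in AFL mice, 12.3, 37.4, 12.3 and 23.9 CPM in vismodegib mice, 58.2, 76.9, 91.5 and 55.0 CPM in BCC mice and 42.8, 38.0, 17.7, 149 and 21.5 CPM in healthy mice. Mmp11 is known as a product of fibroblasts around carcinomas. AFL values lay above and vismodegib values below all BCC values, and healthy mouse 15 lay within the AFL range. Mmp11 fell 3.28-fold in vismodegib against BCC (log2 fold change -1.71 ± 0.57, adjusted p = 0.0484) and did not pass in AFL against BCC (log2 fold change 1.19 ± 0.59, adjusted p = 0.27). For Mmp11 the call in vismodegib against BCC was lost without vismodegib mouse 1, 9 or 12 or BCC mouse 3, 4, 5 or 8 (log2 fold changes -1.85 to -1.49, adjusted p 0.053 to 0.143), with only 1 of the libraries of each mouse (adjusted p = 0.0514) and with no filter on low counts (adjusted p = 0.0527).

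Mmp12 had 184, 91.4 and 113 CPM in AFL mice, 7.72, 6.00, 26.98 and 6.60 CPM in vismodegib mice, 11.4, 42.3, 25.8 and 15.1 CPM in BCC mice and 3.78, 8.37, 5.33, 7.00 and 9.43 CPM in healthy mice. Mmp12 is the elastase of macrophages. All AFL values lay above all values of the other groups. Mmp12 rose 5.48-fold in AFL against BCC (log2 fold change 2.45 ± 0.54, adjusted p = 0.00911) and did not pass in vismodegib against BCC (log2 fold change -1.01 ± 0.50, adjusted p = 0.173) or in BCC against healthy (log2 fold change 1.80 ± 0.47, adjusted p = 0.0529). Of 10 macrophage markers, 10 rose in AFL against BCC, 4 rose and 0 fell in vismodegib against BCC, and 0 passed in BCC against healthy. Their summed level was 3317 to 4697 CPM in AFL mice, 605 to 2428 in vismodegib mice, 333 to 649.9 in BCC mice and 382 to 1138 in healthy mice, with none of the 10 at 0 in any mouse. The part of macrophages in the Mmp12 values was not tested.

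**Figure D2:**
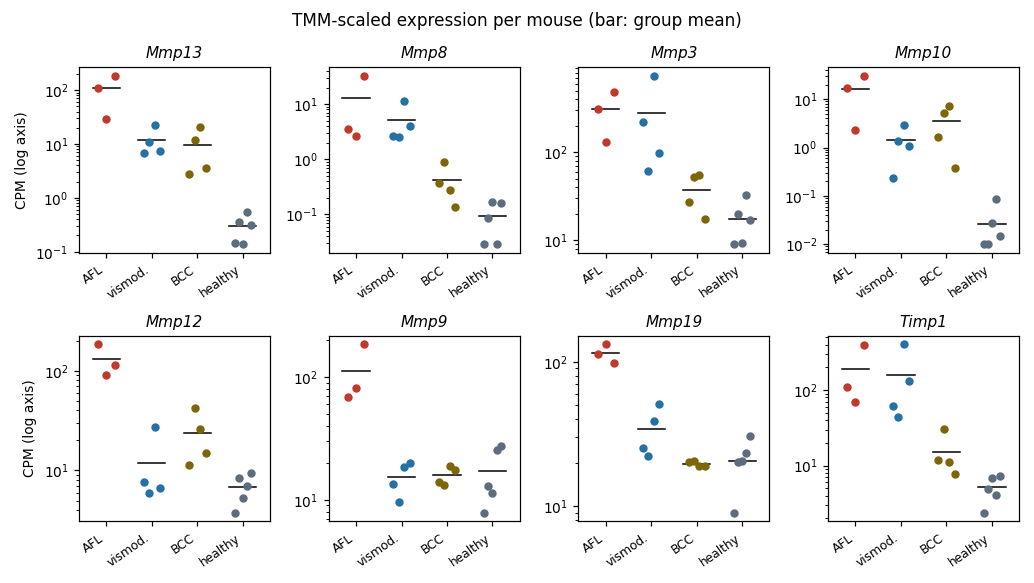
Expression per mouse (CPM, log axis, libraries scaled by TMM) of 8 members in the 4 groups; bars are group means and values of 0 are drawn at 0.01. Mmp9, Mmp12, Mmp13 and Mmp19 are highest in the AFL mice, and Mmp3, Mmp8 and Timp1 are above BCC in AFL and vismodegib mice alike.

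The gelatinases cleave denatured collagen and the collagen of basement membranes. Mmp9 had 68.5, 82.0 and 185 CPM in AFL mice, 13.6, 9.62, 18.4 and 19.99 CPM in vismodegib mice, 13.8, 13.2, 18.97 and 17.3 CPM in BCC mice and 7.86, 13.0, 11.4, 25.5 and 27.6 CPM in healthy mice. AFL values lay above all others, and the vismodegib, BCC and healthy values overlapped. Mmp9 rose 7.06-fold in AFL against BCC (log2 fold change 2.82 ± 0.44, adjusted p = 0.000641) and did not pass in vismodegib against BCC (log2 fold change -0.04 ± 0.39, adjusted p = 0.958). Mmp9 stood at a log2 fold change in AFL against BCC of 2.22 without AFL mouse 11, and the call held there. Mmp19 had 114, 132 and 98.4 CPM in AFL mice, 25.4, 22.4, 39.2 and 50.9 CPM in vismodegib mice, 20.2, 20.6, 18.9 and 19.02 CPM in BCC mice and 9.05, 20.3, 20.5, 23.3 and 30.4 CPM in healthy mice. Mmp19 cleaves basement membrane proteins. Its AFL values lay above all others, and its vismodegib values above all BCC values. Mmp19 rose 5.83-fold in AFL against BCC (log2 fold change 2.54 ± 0.34, adjusted p = 0.000179) and did not pass in vismodegib against BCC (log2 fold change 0.81 ± 0.31, adjusted p = 0.0798). Of its exon bases 22.3% overlap Tmem198b on the other strand in GENCODE vM21, and the strand setting of the counting is not given in the sources used here.

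Of the members above, Mmp13, Mmp12, Mmp1b, Mmp3, Mmp1a, Mmp10 and Mmp8 lie next to each other on chromosome 9, followed by Mmp27, Mmp20 and Mmp7, in the GENCODE vM21 annotation of GRCm38. The cluster holds 10 Mmp genes, of which 9 are members and 7 were tested. In AFL against BCC 4 of these 7 rose with a median log2 fold change of 3.03, beside 2 of 12 other Mmp genes with a median of 0.41. In AFL against healthy 6 of 7 rose (median 6.99), beside 3 of 12 other Mmp genes (0.86), and in vismodegib against healthy 5 of 7 rose (median 5.29), beside 0 of 12 (-0.25), 1 of which fell. Both counts against healthy include Mmp1b, which passed the filter on low counts through treated mice alone. In vismodegib against BCC 2 of 7 rose and 0 fell, while 0 of the 12 other Mmp genes rose and 5 fell. Mmp27, at the far end of the tested genes, passed in none of the 6 comparisons. The plot of the cluster in gene order shows these fold changes.

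**Figure D3:**
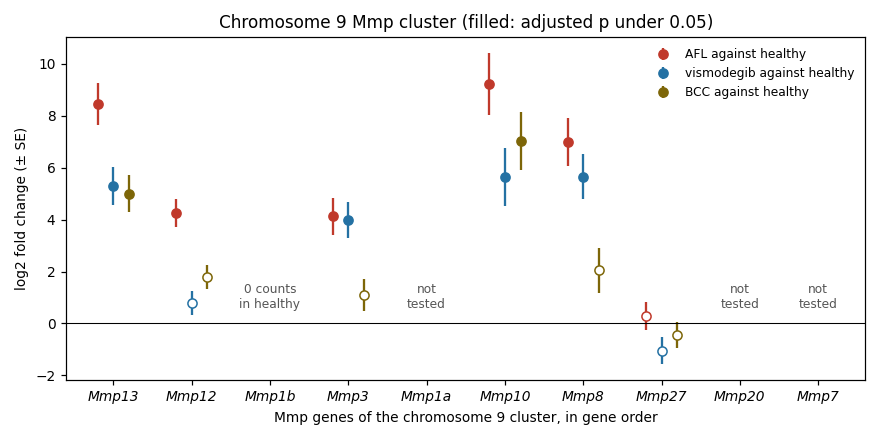
Log2 fold changes (± SE) against healthy skin in AFL, vismodegib and BCC for the Mmp genes of the chromosome 9 cluster, in gene order; filled points have an adjusted p under 0.05. Mmp3 and Mmp8 pass in the treated groups but not in untreated BCC, Mmp12 passes in AFL alone, and Mmp1b, with 0 counts in healthy mice, and untested genes carry no point.

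Windows around the gene starts of 6 cluster genes hold a shared short sequence, and the 6 stretches that contain it are shown. RefSeq promoter windows (GRCm38.p6, 250 bases before to 50 after the start) were found for 30 of the 44 members, in 32 windows. The letters of the AP-1 element, TGACTCA or its reverse complement TGAGTCA, occur in 5.2% of all 32851 promoter windows and in 6 of the 32 (18.8%). The 6 genes are Mmp10, Mmp12, Mmp13, Mmp1a, Mmp1b and Mmp3, all in the chromosome 9 cluster. The windows of the cluster genes Mmp8, Mmp20 and Mmp27 and the other of the 2 windows of Mmp12 do not hold these letters. The letters TATAAA occur on either strand in 13.6% of all windows and in 9 of the 32 (28.1%), and AGGAAG, the core of an ETS element, in 35.4% and in 13 of the 32 (40.6%). A match of letters is a description and no evidence of binding. The 120 bases before each start follow, 5′ to 3′ on the gene's own strand, with the AP-1 letters in capitals. They are Mmp13 at chr9:7272394-7272513 (plus strand), Mmp12 at chr9:7347254-7347373 (plus strand), Mmp1b at chr9:7388027-7388146 (minus strand), Mmp3 at chr9:7445702-7445821 (plus strand), Mmp1a at chr9:7464021-7464140 (plus strand) and Mmp10 at chr9:7502222-7502341 (plus strand).
Mmp13: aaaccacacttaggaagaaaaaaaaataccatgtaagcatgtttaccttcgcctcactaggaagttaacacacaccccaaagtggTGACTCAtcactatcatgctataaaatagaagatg
Mmp12: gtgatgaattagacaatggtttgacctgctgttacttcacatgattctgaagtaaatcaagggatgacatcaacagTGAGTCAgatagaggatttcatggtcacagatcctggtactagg
Mmp1b: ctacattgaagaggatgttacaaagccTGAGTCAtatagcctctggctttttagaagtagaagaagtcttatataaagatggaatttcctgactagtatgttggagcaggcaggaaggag
Mmp3: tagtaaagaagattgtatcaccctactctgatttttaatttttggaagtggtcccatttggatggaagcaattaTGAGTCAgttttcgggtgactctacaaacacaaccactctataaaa
Mmp1a: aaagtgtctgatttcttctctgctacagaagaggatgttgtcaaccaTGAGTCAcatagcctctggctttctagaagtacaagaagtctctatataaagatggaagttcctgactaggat
Mmp10: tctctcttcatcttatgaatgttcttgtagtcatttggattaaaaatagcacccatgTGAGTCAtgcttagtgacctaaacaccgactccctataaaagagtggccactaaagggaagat
The element began 35 bases before the start in Mmp13, 44 in Mmp12, 46 in Mmp3, 63 in Mmp10, 73 in Mmp1a and 93 in Mmp1b. Mmp13 alone carries TGACTCA as written on its own strand, and the other 5 carry TGAGTCA. Among 14 genes of AP-1, ETS and Runx factors, 3 rose and 0 fell in AFL against BCC, where 6.10% of all genes rose. Those that rose were Atf3 (log2 fold change 2.46 ± 0.47, adjusted p = 0.00316), Fosl1 (1.90 ± 0.50, adjusted p = 0.0288) and Fos (1.73 ± 0.50, adjusted p = 0.0456). In vismodegib against BCC 2 rose, Fosl1 (2.00 ± 0.48, adjusted p = 0.0118) and Junb (1.20 ± 0.37, adjusted p = 0.0384), where 8.03% of all genes rose. Of the 14, 1 fell, the Runx factor gene Runx2 (-1.05 ± 0.28, adjusted p = 0.0199), where 9.00% of all genes fell.

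Of the 6 membrane-type Mmp genes, 3 fell and 0 rose in vismodegib against BCC (Mmp14, Mmp15 and Mmp16), and 0 passed in AFL against BCC. Mmp17, Mmp24 and Mmp25 passed in none of the 6 comparisons, and the means of Mmp24 and Mmp25 were higher in vismodegib mice (0.494 and 4.37 CPM) than in BCC mice (0.246 and 3.04 CPM). Mmp14 had 399, 397 and 323 CPM in AFL mice, 158, 166, 153 and 174 CPM in vismodegib mice, 281, 575, 267 and 376 CPM in BCC mice and 185, 214, 173, 251 and 207 CPM in healthy mice. Mmp14 is the cell-surface activator of the Mmp2 precursor. Vismodegib values lay below all BCC values and overlapped the healthy ones, and AFL values lay within the BCC range. Mmp14 fell 2.30-fold in vismodegib against BCC (log2 fold change -1.20 ± 0.23, adjusted p = 0.00315) and rose 1.82-fold in BCC against healthy (log2 fold change 0.86 ± 0.22, adjusted p = 0.0403). For Mmp14 the call in BCC against healthy was lost without BCC mouse 4 or 8 or healthy mouse 10, 13, 14 or 16 (log2 fold changes 0.58 to 0.88, adjusted p 0.0857 to 0.201), with only 1 of the libraries of each mouse (adjusted p = 0.0819) and with growing-hair expression as a covariate (adjusted p = 0.108).

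Mmp15 had 8.56, 21.0 and 12.2 CPM in AFL mice, 15.5, 14.9, 6.48 and 13.5 CPM in vismodegib mice, 34.3, 36.7, 12.3 and 43.9 CPM in BCC mice and 14.7, 17.6, 16.7, 19.6 and 26.3 CPM in healthy mice. Mmp15 is a further transmembrane Mmp. Its vismodegib and BCC values overlapped at BCC mouse 5. It fell 2.52-fold in vismodegib against BCC (log2 fold change -1.33 ± 0.38, adjusted p = 0.027). For Mmp15 the call in vismodegib against BCC was lost without vismodegib mouse 9 or BCC mouse 4 or 8 (log2 fold changes -1.26 to -1.10, adjusted p 0.0627 to 0.0789). Mmp16 had 7.61, 2.07 and 2.09 CPM in AFL mice, 0.171, 1.19, 0.850 and 1.46 CPM in vismodegib mice, 2.98, 6.44, 5.72 and 2.75 CPM in BCC mice and 1.24, 1.52, 2.15, 1.22 and 2.01 CPM in healthy mice. Mmp16 is a further membrane-type activator of the Mmp2 precursor. All vismodegib values lay below all BCC values. Mmp16 fell 4.81-fold in vismodegib against BCC (log2 fold change -2.26 ± 0.57, adjusted p = 0.0147). For Mmp16 the call in vismodegib against BCC was lost with the days since induction as a covariate (adjusted p = 0.0729). Mmp23 had 23.4, 23.2 and 23.4 CPM in AFL mice, 4.20, 6.27, 4.51 and 6.60 CPM in vismodegib mice, 12.4, 16.3, 10.1 and 13.0 CPM in BCC mice and 5.14, 12.6, 12.9, 15.5 and 17.9 CPM in healthy mice. Mmp23 is held in the membrane by its front end and lacks the hemopexin domain of most Mmp proteins. AFL values lay above all other values, and vismodegib values below all BCC values. It fell 2.39-fold in vismodegib against BCC (log2 fold change -1.26 ± 0.31, adjusted p = 0.0129) and did not pass in AFL against BCC (log2 fold change 0.85 ± 0.32, adjusted p = 0.138).

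Of the 19 Adamts genes, 7 fell and 0 rose in vismodegib against BCC, 2 rose and 2 fell in AFL against BCC, and 5 rose in BCC against healthy. The steepest falls with vismodegib were those of Adamts17 and Adamts19, proteases that belong to one branch of the family and whose substrates are little known; inherited loss of ADAMTS17 in humans causes short stature with eye defects, and of ADAMTS19 heart valve disease. Adamts17 had 18.3, 6.01 and 6.51 CPM in AFL mice, 3.07, 4.69, 1.86 and 6.62 CPM in vismodegib mice, 34.2, 26.95, 26.5 and 43.7 CPM in BCC mice and 3.37, 4.52, 5.69, 3.27 and 5.41 CPM in healthy mice. BCC values lay above all other values, and the vismodegib and healthy values overlapped. Adamts17 rose 7.37-fold in BCC against healthy (log2 fold change 2.88 ± 0.39, adjusted p = 0.000603) and fell 8.03-fold in vismodegib against BCC (log2 fold change -3.01 ± 0.43, adjusted p = 0.000537) and 3.20-fold in AFL against BCC (log2 fold change -1.68 ± 0.45, adjusted p = 0.0306). For Adamts17 the call in AFL against BCC was lost without AFL mouse 7 or 11 or BCC mouse 3 or 8 (log2 fold changes -1.66 to -1.41, adjusted p 0.0557 to 0.168), with only 1 of the libraries of each mouse (adjusted p = 0.0605) and with the days since induction as a covariate (adjusted p = 0.23). Adamts17 stood at a log2 fold change of -2.38 without AFL mouse 2, and the call held there.

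Adamts19 had 5.58, 0.945 and 0.993 CPM in AFL mice, 0.342, 1.37, 0.319 and 0.440 CPM in vismodegib mice, 3.65, 10.3, 9.33 and 7.17 CPM in BCC mice and 1.63, 1.72, 1.52, 1.48 and 1.30 CPM in healthy mice. BCC values lay above all vismodegib and healthy values, and AFL mouse 2 lay within the BCC range. Adamts19 rose 4.97-fold in BCC against healthy (log2 fold change 2.31 ± 0.54, adjusted p = 0.0267) and fell 12.1-fold in vismodegib against BCC (log2 fold change -3.60 ± 0.62, adjusted p = 0.00177). It did not pass in AFL against BCC (log2 fold change -1.61 ± 0.63, adjusted p = 0.149). For Adamts19 the call in BCC against healthy was lost without BCC mouse 4, 5 or 8 or healthy mouse 10, 13, 14, 15 or 16 (log2 fold changes 2.14 to 2.36, adjusted p 0.0505 to 0.1). Adamts19 stood at a log2 fold change in vismodegib against BCC of -4.34 without vismodegib mouse 6, and the call held there. Hedgehog output genes moved with both. Hhip, whose product captures Hedgehog ligands, rose in BCC against healthy (log2 fold change 3.52 ± 0.49, adjusted p = 0.000775) and fell in vismodegib against BCC (-4.71 ± 0.57, adjusted p = 0.000207) and in AFL against BCC (-2.55 ± 0.58, adjusted p = 0.0112). The gene of the Hedgehog effector Gli2 also rose in BCC against healthy (1.27 ± 0.29, adjusted p = 0.0209) and fell in vismodegib against BCC (-1.81 ± 0.31, adjusted p = 0.0017) and in AFL against BCC (-1.45 ± 0.34, adjusted p = 0.0136). Their part in the Adamts17 and Adamts19 values was not tested.

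Adamts16 had 4.31, 2.10 and 3.30 CPM in AFL mice, 0.0342, 0.152, 0.159 and 0.110 CPM in vismodegib mice, 0.0869, 0.323, 0.715 and 0.0817 CPM in BCC mice and 0.237, 0.904, 0.469, 1.07 and 1.95 CPM in healthy mice. Adamts16 is a protease of the same branch as Adamts18, with a role in kidney and gonad development. AFL values lay above all others, and vismodegib values below all healthy ones. Adamts16 rose 10.7-fold in AFL against BCC (log2 fold change 3.42 ± 0.74, adjusted p = 0.00835) and did not pass in vismodegib against BCC (log2 fold change -1.39 ± 0.77, adjusted p = 0.225). Adamts16 stood at a log2 fold change in AFL against BCC of 4.25 without BCC mouse 5, and the call held there.

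**Figure D4:**
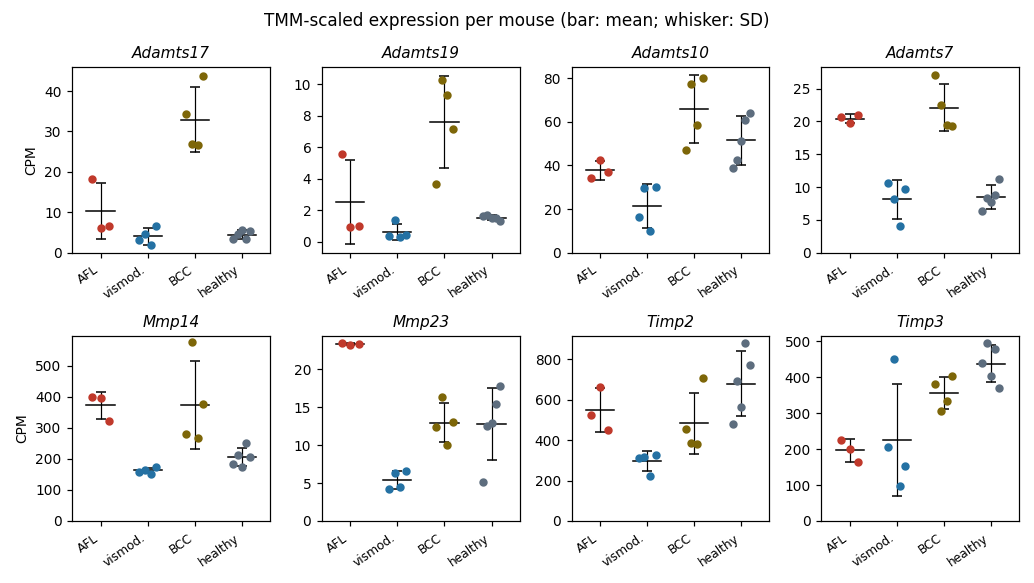
Expression per mouse (CPM, linear axis, libraries scaled by TMM) of 8 members in the 4 groups; bars are group means and whiskers the SD. Adamts7, Adamts10, Adamts17, Adamts19, Mmp14 and Mmp23 fell in vismodegib against BCC without overlap, and Timp2 and Timp3 did not pass there.

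Adamts7 and Adamts12, which cleave the matrix protein Comp, fell with vismodegib. Adamts7 had 20.6, 19.8 and 21.0 CPM in AFL mice, 10.7, 8.16, 3.98 and 9.71 CPM in vismodegib mice, 27.1, 22.5, 19.5 and 19.4 CPM in BCC mice and 6.33, 8.34, 7.67, 8.80 and 11.2 CPM in healthy mice. Vismodegib values lay below all AFL and BCC values and overlapped the healthy ones. Adamts7 rose 2.61-fold in BCC against healthy (log2 fold change 1.38 ± 0.25, adjusted p = 0.00488) and fell 2.71-fold in vismodegib against BCC (log2 fold change -1.44 ± 0.27, adjusted p = 0.00286). Adamts12 had 95.0, 42.3 and 99.7 CPM in AFL mice, 7.21, 21.2, 15.9 and 13.2 CPM in vismodegib mice, 15.9, 80.0, 57.1 and 28.1 CPM in BCC mice and 12.2, 19.97, 29.1, 16.8 and 20.3 CPM in healthy mice. BCC and vismodegib values overlapped at BCC mouse 3. Adamts12 fell 3.15-fold in vismodegib against BCC (log2 fold change -1.65 ± 0.46, adjusted p = 0.0232). For Adamts12 the call in vismodegib against BCC was lost without vismodegib mouse 1, 9 or 12 or BCC mouse 4 or 5 (log2 fold changes -1.66 to -1.23, adjusted p 0.0502 to 0.0817) and with the days since induction as a covariate (adjusted p = 0.0781).

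Adamts6 and Adamts10, related proteases tied to fibrillin microfibrils, fell as well. Adamts10 had 34.1, 42.6 and 36.8 CPM in AFL mice, 16.3, 29.8, 9.88 and 30.3 CPM in vismodegib mice, 47.3, 77.2, 58.4 and 80.1 CPM in BCC mice and 38.7, 42.5, 51.4, 61.1 and 64.1 CPM in healthy mice. Vismodegib values lay below every BCC and healthy value. Adamts10 fell 3.04-fold in vismodegib against BCC (log2 fold change -1.61 ± 0.31, adjusted p = 0.00328). Adamts6 had 5.14, 4.57 and 9.04 CPM in AFL mice, 0.751, 3.32, 0.637 and 1.40 CPM in vismodegib mice, 3.10, 4.29, 6.65 and 3.81 CPM in BCC mice and 3.87, 3.79, 5.91, 5.67 and 3.70 CPM in healthy mice. Vismodegib mouse 6 lay within the BCC range. Adamts6 fell 2.90-fold in vismodegib against BCC (log2 fold change -1.54 ± 0.46, adjusted p = 0.0324). For Adamts6 the call in vismodegib against BCC was lost without vismodegib mouse 1, 9 or 12 or BCC mouse 4, 5 or 8 (log2 fold changes -1.63 to -1.25, adjusted p 0.0576 to 0.0904) and with the days since induction as a covariate (adjusted p = 0.127). Adamts6 stood at a log2 fold change of -2.23 without vismodegib mouse 6, and the call held there.

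The procollagen N-proteinases remove the amino-terminal propeptide of fibrillar procollagens. Adamts2 had 201, 184 and 212 CPM in AFL mice, 71.8, 86.0, 50.3 and 89.4 CPM in vismodegib mice, 94.7, 98.9, 85.8 and 95.3 CPM in BCC mice and 78.4, 111, 88.8, 208 and 132 CPM in healthy mice. Adamts2 is the chief such enzyme of skin. AFL values lay above all BCC and vismodegib values, and healthy mouse 15 lay within the AFL range. Adamts2 rose 2.13-fold in AFL against BCC (log2 fold change 1.09 ± 0.28, adjusted p = 0.0266). For Adamts2 the call in AFL against BCC was lost without AFL mouse 2, 7 or 11 or BCC mouse 3, 4, 5 or 8 (log2 fold changes 1.01 to 1.14, adjusted p 0.0506 to 0.135), with the days since induction as a covariate (adjusted p = 0.0849) and with scaling by library size alone (adjusted p = 0.121). Adamts14 had 31.0, 43.9 and 24.8 CPM in AFL mice, 10.7, 10.0, 4.51 and 15.7 CPM in vismodegib mice, 16.6, 18.3, 25.7 and 42.4 CPM in BCC mice and 24.6, 19.3, 19.6, 40.8 and 34.5 CPM in healthy mice. Vismodegib values lay below all values of the other groups. Adamts14 fell 2.51-fold in vismodegib against BCC (log2 fold change -1.33 ± 0.38, adjusted p = 0.0285). For Adamts14 the call in vismodegib against BCC was lost without vismodegib mouse 1 or 9 or BCC mouse 8 (log2 fold changes -1.34 to -1.03, adjusted p 0.0538 to 0.0998).

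The hyalectanases cut aggrecan, versican and related proteoglycans. Adamts1 had 83.2, 95.6 and 95.9 CPM in AFL mice, 72.9, 68.4, 64.8 and 72.3 CPM in vismodegib mice, 62.9, 107, 119.7 and 87.2 CPM in BCC mice and 54.9, 35.4, 57.8, 37.4 and 52.4 CPM in healthy mice. The BCC values lay above the healthy ones, and AFL values within the BCC range. Adamts1 rose 1.98-fold in BCC against healthy (log2 fold change 0.98 ± 0.20, adjusted p = 0.0105). Adamts4 had 53.1, 37.1 and 72.0 CPM in AFL mice, 25.4, 9.404, 13.1 and 19.3 CPM in vismodegib mice, 9.12, 54.4, 21.5 and 20.2 CPM in BCC mice and 2.45, 4.49, 6.18, 3.99 and 14.5 CPM in healthy mice. Adamts4 is an aggrecan-cutting enzyme. BCC mouse 3 lay within the healthy range. Adamts4 rose 4.14-fold in BCC against healthy (log2 fold change 2.05 ± 0.52, adjusted p = 0.0446). For Adamts4 the call in BCC against healthy was lost without BCC mouse 4, 5 or 8 or healthy mouse 10, 13, 14 or 15 (log2 fold changes 1.42 to 2.17, adjusted p 0.0591 to 0.262), with only 1 of the libraries of each mouse (adjusted p = 0.237), with all 19 libraries as replicates (adjusted p = 0.0941) and with growing-hair expression as a covariate (adjusted p = 0.136). Adamts4 stood at a log2 fold change of 1.42 without BCC mouse 4. Adamts8 had 1.87, 1.40 and 0.977 CPM in AFL mice, 2.83, 1.25, 2.66 and 2.53 CPM in vismodegib mice, 3.77, 4.20, 2.67 and 4.88 CPM in BCC mice and 1.86, 2.33, 2.07, 2.43 and 3.45 CPM in healthy mice. AFL values lay below all BCC values. Adamts8 fell 2.75-fold in AFL against BCC (log2 fold change -1.46 ± 0.37, adjusted p = 0.0228). For Adamts8 the call in AFL against BCC was lost without AFL mouse 7 or 11 or BCC mouse 4 or 8 (log2 fold changes -1.45 to -1.28, adjusted p 0.0518 to 0.126) and with the days since induction as a covariate (adjusted p = 0.0973). Of Adamts8 exon bases 10.6% overlap the antisense gene Gm29724 in GENCODE vM21. Adamts13, which cuts von Willebrand factor, passed in no comparison, with its smallest p among the 3 comparisons with BCC in AFL against BCC (log2 fold change -0.67 ± 0.39, adjusted p = 0.359).

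Of the 4 Timp genes, Timp1 alone passed in a comparison with BCC. Timp1 had 109, 69.2 and 399 CPM in AFL mice, 61.7, 44.4, 405 and 132 CPM in vismodegib mice, 11.9, 30.6, 11.3 and 7.74 CPM in BCC mice and 2.39, 4.96, 6.93, 4.05 and 7.40 CPM in healthy mice. Timp1 is the inhibitor that wounds and inflammation switch on. Every AFL and vismodegib value lay above every BCC and healthy value, and AFL mouse 11 and vismodegib mouse 9 were the highest. Timp1 rose 12.5-fold in AFL against BCC (log2 fold change 3.64 ± 0.76, adjusted p = 0.00686) and 10.4-fold in vismodegib against BCC (log2 fold change 3.38 ± 0.73, adjusted p = 0.00655), and did not pass in BCC against healthy (log2 fold change 1.58 ± 0.64, adjusted p = 0.27). For Timp1 the call in AFL against BCC was lost without AFL mouse 11 (log2 fold change 2.49, adjusted p = 0.0683). Timp1 stood at a log2 fold change in vismodegib against BCC of 2.39 without vismodegib mouse 9, and the call held there.

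Timp2 had 526, 665 and 450.2 CPM in AFL mice, 313, 319, 221 and 327 CPM in vismodegib mice, 456, 386, 381 and 707 CPM in BCC mice and 481, 693, 564, 883 and 774 CPM in healthy mice. Timp2 takes part in activating the Mmp2 precursor at the cell surface, besides inhibiting Mmp enzymes. Vismodegib values lay below all values of the other groups. Timp2 fell 2.30-fold in vismodegib against healthy (log2 fold change -1.20 ± 0.25, adjusted p = 0.00696) and did not pass in vismodegib against BCC (log2 fold change -0.71 ± 0.26, adjusted p = 0.0698) or in AFL against BCC (log2 fold change 0.18 ± 0.28, adjusted p = 0.783). Timp3 had 226, 199.8 and 164 CPM in AFL mice, 206, 451, 96.6 and 153 CPM in vismodegib mice, 381, 307, 335 and 404 CPM in BCC mice and 441, 494, 403, 479 and 371 CPM in healthy mice. Timp3 is bound to the matrix and also inhibits ADAMTS and ADAM proteases. AFL values lay below all BCC and healthy values, and vismodegib mouse 6, which had growing hair, lay within the healthy range. Timp3 did not pass in AFL against BCC (log2 fold change -0.86 ± 0.37, adjusted p = 0.201) or in vismodegib against BCC (log2 fold change -0.65 ± 0.34, adjusted p = 0.195). Of its exon bases 21.3% overlap Syn3 on the other strand in GENCODE vM21. Timp4 had 7.99, 11.0 and 1.15 CPM in AFL mice, 5.94, 5.14, 5.89 and 12.6 CPM in vismodegib mice, 3.88, 5.47, 20.1 and 15.5 CPM in BCC mice and 4.91, 8.46, 15.2, 14.6 and 35.3 CPM in healthy mice. Timp4 spans a wide range in every group, and the groups overlapped. It passed in none of the 6 comparisons.

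The direct comparison of the treatments asked how laser-treated and drug-treated tumour skin differed. In AFL against vismodegib 16 of 42 members rose, where 6.69% of all genes rose, and 0 fell, where 2.46% of all genes fell; 24 members had an unadjusted p under 0.05 in either direction in edgeR, and DESeq2 called 21 as higher and 0 as lower. The median log2 fold change of the members was 1.26, beside -0.06 over all genes. The members that rose were Mmp9, Mmp10, Mmp11, Mmp12, Mmp13, Mmp14, Mmp16, Mmp19, Mmp23, Adamts2, Adamts6, Adamts7, Adamts12, Adamts14, Adamts15 and Adamts16. The largest rise was that of Adamts16 (log2 fold change 4.82 ± 0.81, adjusted p = 0.0018), and the smallest adjusted p was that of Mmp9 (log2 fold change 2.86 ± 0.44, adjusted p = 0.000871). Mmp11 averaged 160.4 ± 47.6 CPM in AFL and 21.5 ± 12.0 CPM in vismodegib (SD, n = 3 and n = 4), and rose 7.46-fold (log2 fold change 2.90 ± 0.61, adjusted p = 0.00777). Timp1 did not pass (log2 fold change 0.26 ± 0.72, adjusted p = 0.846), nor did Mmp3 (log2 fold change 0.14 ± 0.71, adjusted p = 0.917) or Mmp8 (log2 fold change 1.33 ± 0.80, adjusted p = 0.306). Of the 16 calls 10 held with each mouse left out in turn. Log2 fold changes moved by over 1.5 times as a fold for single mice: 1.20 for Mmp16 without AFL mouse 2, 2.80 for Mmp10 and 2.53 for Mmp13 without AFL mouse 11, 2.72 for Adamts6 without vismodegib mouse 6 and 4.22 for Mmp12 without vismodegib mouse 9. Calls were lost for Adamts14 (without AFL mouse 7), Adamts15 (without AFL mouse 11), Adamts6 (without AFL mouse 11 or vismodegib mouse 1), Mmp10 (without AFL mouse 2 or 11 or vismodegib mouse 1, 6 or 12), Mmp13 (without AFL mouse 11) and Mmp16 (without AFL mouse 2 or vismodegib mouse 1 or 9), with adjusted p 0.0502 to 0.295. Other settings ended the call of Adamts14 (adjusted p = 0.121), of Adamts15 (adjusted p = 0.0537), of Adamts7 (adjusted p = 0.066) and of Mmp14 (adjusted p = 0.0695) with the days since induction as a covariate, of Mmp16 (adjusted p = 0.0528) with only 1 of the libraries of each mouse and of Mmp16 (adjusted p = 0.0538) with growing-hair expression as a covariate.

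Against healthy skin, in AFL 15 members rose (Mmp1b, Mmp3, Mmp8, Mmp9, Mmp10, Mmp12, Mmp13, Mmp14, Mmp19, Adamts1, Adamts4, Adamts7, Adamts12, Adamts15 and Timp1), where 7.95% of all genes rose, and 0 fell, where 1.29% of all genes fell; 27 had an unadjusted p under 0.05 in either direction in edgeR, and DESeq2 called 18 as higher and 2 as lower. The median log2 fold change of the members was 0.79, beside 0.01 over all genes. Mmp13 had the smallest adjusted p (log2 fold change 8.46 ± 0.81, adjusted p = 1.23e-05). Mmp10, nearly absent from healthy skin, had the largest fitted rise (log2 fold change 9.23 ± 1.20, adjusted p = 9.74e-05). Adamts15, a versican-cutting protease that passed in no comparison with BCC, averaged 49.996 ± 6.85 CPM in AFL and 19.6 ± 3.83 CPM in healthy skin (log2 fold change 1.35 ± 0.30, adjusted p = 0.00749). Log2 fold changes moved by over 1.5 times as a fold for single mice: 8.39 for Mmp10, 7.77 for Mmp13, 4.90 for Mmp8, 2.10 for Mmp9 and 4.07 for Timp1 without AFL mouse 11 and 10.16 for Mmp10 without healthy mouse 15. Calls were lost for Adamts1 (without AFL mouse 11), Adamts12 (without AFL mouse 11), Adamts15 (without AFL mouse 11) and Mmp14 (without AFL mouse 2, 7 or 11 or healthy mouse 10, 13 or 14), with adjusted p 0.0563 to 0.113. Other settings ended the call of Adamts1 (adjusted p = 0.165), of Adamts12 (adjusted p = 0.0593) and of Mmp14 (adjusted p = 0.281) with growing-hair expression as a covariate, of Adamts1 (adjusted p = 0.0512) and of Mmp14 (adjusted p = 0.0749) with scaling by library size alone and of Adamts15 (adjusted p = 0.0614) and of Mmp14 (adjusted p = 0.0824) with only 1 of the libraries of each mouse.

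In vismodegib against healthy 6 members rose (Mmp1b, Mmp3, Mmp8, Mmp10, Mmp13 and Timp1), where 7.57% of all genes rose, and 6 fell (Mmp23, Adamts6, Adamts10, Adamts14, Adamts16 and Timp2), where 4.07% of all genes fell. The median log2 fold change of the members was -0.18, beside 0.02 over all genes. The count was 22 without vismodegib mouse 6, the one with growing hair, of which 10 rose and 12 fell. Log2 fold changes moved by over 1.5 times as a fold for single mice: -2.27 for Adamts6 without vismodegib mouse 6, 2.83 for Mmp3, 4.91 for Mmp8 and 3.93 for Timp1 without vismodegib mouse 9 and 6.58 for Mmp10 without healthy mouse 15. Calls were lost for Adamts14 (without vismodegib mouse 9 or healthy mouse 15 or 16) and Adamts6 (without vismodegib mouse 1, 9 or 12 or healthy mouse 13, 14, 15 or 16), with adjusted p 0.051 to 0.0921. Other settings ended the call of Adamts6 (adjusted p = 0.0757) with growing-hair expression as a covariate. Of the 12 calls 9 held with each mouse left out in turn, and 8 held under every alternative. Calls lost with the replicate number as a block are not named by gene here. The call of Mmp1b was also lost, without vismodegib mouse 9 (adjusted p = 0.0605), without healthy mouse 16 (adjusted p = 0.052) and with growing-hair expression as a covariate (adjusted p = 0.0697).

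**Figure D5:**
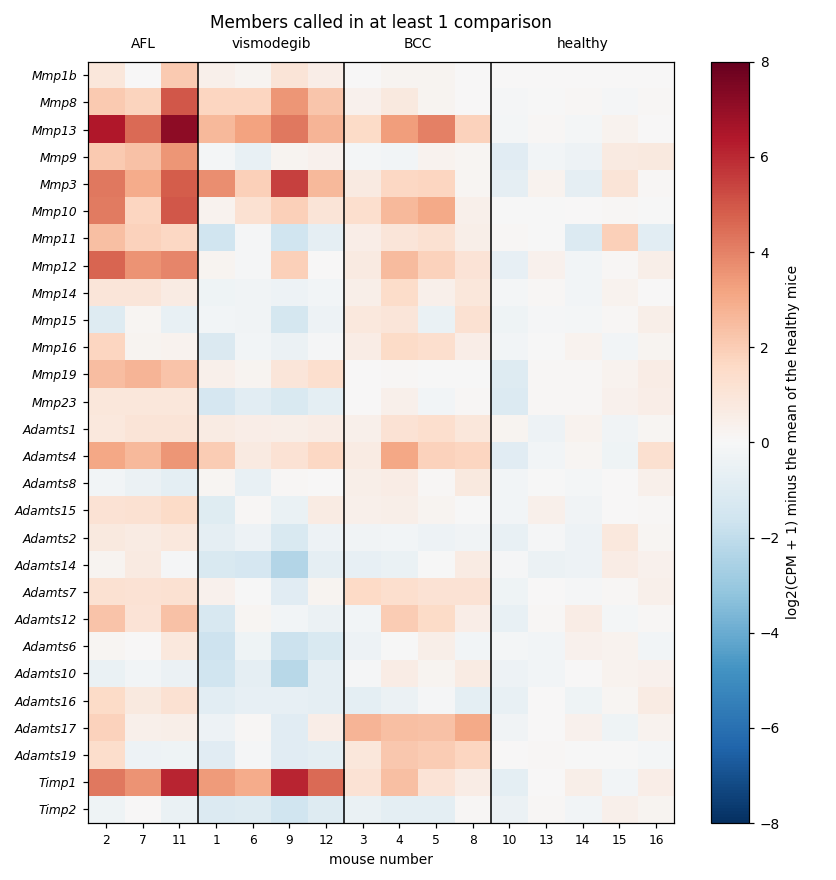
Log2(CPM + 1) of the 28 members called in at least 1 of the 6 comparisons, for each of the 16 mice, minus the mean of the healthy mice; red is higher and blue lower than in healthy skin. The highest values are those of Mmp13 in AFL mice 2 and 11, and Adamts17 is highest in the 4 BCC mice.

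The remaining 14 members were called in none of the 6 comparisons: Mmp2, Mmp17, Mmp24, Mmp25, Mmp27, Mmp28, Adamts3, Adamts5, Adamts9, Adamts13, Adamts18, Adamts20, Timp3 and Timp4. Adamts18 and Adamts20, singled out after their values were seen, had their highest vismodegib values, 11.0 and 18.5 CPM, in mouse 6, beside 0.159 to 1.32 and 0.717 to 1.43 CPM in the other 3 vismodegib mice. Mmp20, the tooth enamel protease, was not tested and held 0 counts over the AFL mice, 6 over the vismodegib mice, 2 over the BCC mice and 41 over the healthy mice, 28 of them in mouse 10.

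Genes that act on or beside the members were taken from lists. Over all genes, 6.10% rose and 1.65% fell in AFL against BCC, and 8.03% rose and 9.00% fell in vismodegib against BCC. In BCC against healthy 2.66% rose and 0.159% fell. The lists are small, and counts near these shares are not read as a result about a list. Of 20 tested genes for activation and cell-surface control of metalloproteinases, 4 rose and 1 fell in AFL against BCC, with the smallest p in Plaur, the urokinase receptor (log2 fold change 3.09 ± 0.44, adjusted p = 0.000328), and with Plau, the gene of urokinase, also higher (1.27 ± 0.25, adjusted p = 0.00435). In vismodegib against BCC 1 rose, again Plau (1.01 ± 0.24, adjusted p = 0.0102), and 3 fell, among them the membrane protease gene Hpn (-2.38 ± 0.33, adjusted p = 0.000501) and Reck, a membrane-anchored Mmp inhibitor (-1.09 ± 0.31, adjusted p = 0.0265). Of 10 tested membrane-bound ADAM genes 4 rose in AFL against BCC, with the smallest p in Adam8, a protease of myeloid cells (3.55 ± 0.41, adjusted p = 7.50e-05), and 1 rose and 1 fell in vismodegib against BCC. Of 17 matrix substrate genes, 1 rose and 11 fell in vismodegib against BCC, with the smallest p among the falls in the collagen genes Col2a1 (-4.83 ± 0.59, adjusted p = 0.000207), Col7a1 (-1.97 ± 0.30, adjusted p = 0.00083) and Col1a1 (-2.80 ± 0.55, adjusted p = 0.00368), and 1 rose and 1 fell in AFL against BCC. Of 15 ADAMTS-like genes and ADAMTS substrates or partners 5 fell and 0 rose in vismodegib against BCC, with the smallest p in Adamtsl2, which binds fibrillin (-3.53 ± 0.63, adjusted p = 0.00218). Of 14 cytokine genes known for inducing metalloproteinases 4 rose in AFL against BCC, with the smallest p in Osm (4.93 ± 0.66, adjusted p = 0.0002) and Il1b (5.21 ± 1.024, adjusted p = 0.00461), and in vismodegib against BCC 7 rose, with Il17a first (7.11 ± 0.96, adjusted p = 0.000389), and 2 fell, Tgfb3 (-2.39 ± 0.27, adjusted p = 0.000138) and Tgfb2 (-2.59 ± 0.37, adjusted p = 0.000541). In BCC against healthy 5 of the 17 matrix substrate genes, 2 of the 20 activation genes and 2 of the 14 cytokine genes rose, and 0 of these fell. The median log2 fold changes in AFL against BCC and in vismodegib against BCC were -0.35 and 0.09 for the activation list, 0.89 and 0.09 for the ADAM list, 0.23 and -1.09 for the matrix substrates, -0.46 and -1.03 for the ADAMTS-like list, 0.70 and 1.49 for the cytokines and 0.25 and 0.04 for the AP-1, ETS and Runx factors, beside -0.04 and 0.05 over all genes.

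Of 9 fibroblast markers 1 rose in AFL against BCC, and 2 fell in vismodegib against BCC, the collagen genes Col1a1 and Col1a2. Over all genes, 6.10% rose in AFL against BCC, and 8.03% rose and 9.00% fell in vismodegib against BCC. In vismodegib against BCC the fold changes of Dcn, Lum, Pi16, Dpp4 and Fap were positive and those of Thy1 and Pdgfra negative, and none of these passed. The median log2 fold change of the fibroblast markers there was 0.05. Their summed level was 11960.0 to 13657 CPM in AFL mice, 2354 to 7964 in vismodegib mice, 4397 to 16247 in BCC mice and 2846 to 8049 in healthy mice. Endothelial markers rose for 5 of 8 genes in AFL against BCC and for 0 of 8 in vismodegib against BCC. Of the 8 keratinocyte markers, 2 rose in vismodegib against BCC, Krt14 (2.10 ± 0.40, adjusted p = 0.00286) and Krt1 (2.33 ± 0.61, adjusted p = 0.0174), and 0 passed in AFL against BCC. The part of these cell types in the members' values was not tested.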

How the data were processed

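RNA from skin pieces of 16 mice was read in 19 libraries, made with oligo dT capture and a directional kit, per the labels' protocols. The authors deposited RSEM expected counts per gene without normalisation, obtained with Bowtie2 and RSEM on GRCm39 per the submitters' processing notes. Their versions, annotation and strand setting: not given in the sources used here. Expected counts were rounded (3.42% were not whole), and 2 libraries each of mice 11, 12 and 16 were summed; the labels give mouse 16 ages of both 128 and 135 days. The filter filterByExpr of edgeR 4.0.16 in R 4.3.3 kept 15760 genes. All 16 mice entered a robust quasi-likelihood fit (glmQLFit, TMM scaling, group as the sole term), and 6 contrasts were tested with glmQLFTest and Benjamini-Hochberg adjustment over all genes. The SE is the log2 fold change over the root of F. CPM uses TMM-scaled totals, and errors are SD between mice. A group at 0 counts was given a floor of 3 counts over the group; such bounds cover counting error only, since reads are not independent molecules. The members, lists and tests were chosen with earlier results of these data known. Named were the Timp genes, every member called in a comparison and up to 3 called genes per list and comparison. Alternatives were RLE scaling, library size alone, other filters on low counts, DESeq2 1.42.0, other replicate units, a replicate block, covariates and leaving out each mouse. The fit was tested on simulated data. Some genes of the lists are not reported here.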

Additional observations from a re-analysis of the deposited data

Results flagged for a closer look

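In groups of 4 or 5 mice, a single mouse stood far from the rest of its group in 6 of 90 combinations of member and group, by Dixon's criterion at 95%, which chance alone meets in about 1 of 20 groups; AFL, with 3 mice, was not examined. Vismodegib mouse 9 was the highest of its group for Mmp8 (11.6 CPM, with 3.98 next) and Mmp12 (26.98 CPM, with 7.72 next), and the lowest for Timp2 (221 CPM, with 313 next). It is the mouse with the TMM factor of 0.591 and the highest neutrophil marker sum. Vismodegib mouse 6 was the highest of its group for Adamts19 (1.37 CPM, with 0.440 next), and it had growing hair. Vismodegib mouse 12 was the highest of its group for Timp4 (12.6 CPM, with 5.94 next). Healthy mouse 15 was the highest of its group for Mmp11 (149 CPM, with 42.8 next).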

How the results depend on the processing

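Of 77 calls of members over the 6 comparisons, 46 held under every alternative in which they were examined and none reversed. RLE scaling kept 77 of 77. DESeq2 kept all of the 73 for which it gave an adjusted p, and the filter of at least 1 CPM in 3 mice kept all of the 75 it tested. The calls left without a result there were not counted as lost. With 1 mouse left out, the number of members called lay between 6 and 11 in AFL against BCC (main 11), 11 and 20 in vismodegib against BCC (15), 5 and 10 in BCC against healthy (8), 11 and 18 in AFL against healthy (15), 10 and 22 in vismodegib against healthy (12) and 13 and 17 in AFL against vismodegib (16). Under the other settings it lay between 10 and 15, 14 and 20, 6 and 9, 13 and 20, 11 and 16, and 12 and 21, in the same order. Scaling by library size alone moved the median of all genes by -0.14 in AFL against BCC, -0.35 in vismodegib against BCC, -0.27 in vismodegib against healthy and 0.22 in AFL against vismodegib (log2), and by less than 0.1 in the other 2 comparisons.

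Same-numbered mice showed no shared deviation (21 pairs, median correlation -0.167, 7 over 0.1), beside 74 pairs with other numbers (median -0.034, 31 over 0.1). The pairs are few and share mice, so they cannot exclude a pairing by number. The main fit treated the mice as unpaired. With the replicate block, 12, 15, 6, 19, 11 and 17 members were called in the same order, and 7 of 77 calls were lost. These 7 are not named in the sentences on single genes, so a call without a listed loss may be among them.

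Timp2 in vismodegib against BCC, without a call, passed with DESeq2 (adjusted p = 0.021). In each comparison, directions under the alternatives were examined only for the called members and the Timp genes. Those that turned belonged to Timp genes without a call, and the cause was not tested. Other members without a call were not examined, so this does not set the Timp genes apart from them. Timp2 in AFL against BCC was -0.28 with the days since induction as a covariate. With growing-hair expression as a covariate, Timp3 was 0.14 in AFL against vismodegib and 0.14 in BCC against healthy. Timp4 in AFL against vismodegib was 0.038 with library size alone and 0.30 with the replicate block. With 1 mouse left out, Timp1 in AFL against vismodegib ran from -0.82 to 1.25, Timp3 from -0.50 to 0.37 and Timp4 from -0.71 to 0.37, and Timp4 in BCC against healthy from -0.90 to 0.057.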
